A study of Saccharomyces cerevisiae with 6 samples.

Results

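Chromosome XI of budding yeast carries the genes of a left and a right arm that meet at the centromere CEN11, and the 366 genes analysed here are those of both arms. They were chosen as every feature whose locus lies on chromosome XI and whose FPKM status was OK in all 6 tables, without SRX1 and GPX1, which the labels name as deleted. FPKM counts the fragments on a feature, divided by its length in kb and by the library's mapped total. The 366 stand among 7051 features with that status, and 236 carry a left-arm identifier (YKL), 109 a right-arm identifier (YKR), and 21 are RNA genes with no arm in their identifier (16 tRNA genes and 5 snR genes). A mean of at least 1 FPKM over the 6 libraries was met by 235 left-arm genes, 108 right-arm genes and all 21 RNA genes. The 2 members below it were YKL225W, listed at 0 in every library, and YKR033C. In R64 the left arm spans 440 kb and the right arm 227 kb.

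Polyadenylated RNA of 3 strains grown in YPD, a rich glucose medium, was sequenced with 2 libraries per strain, and all strains are labelled S288c. The strain called wild type here is titled Wt-M11 and labelled as monosomic for chromosome XI. Its genotype label reads MAT a with can1-100, his3-11,15, leu2-3, trp1-1, ade2-1 and ura3, with GAL and [phi+], and with HIS3 and KanMX6 placed on chromosome XI between YKL006C-A and YKL006W (positions 430900 to 431000). The null strains D8A and D8B share one genotype label. It is MATa with his3, leu2, met15 and ura3 and with 9 genes replaced by markers, namely tsa1 and gpx3 by KAN, tsa2 by LEU2, dot5 by MET15, ahp1 by HIS3, prx1 and gpx1 by URA3, gpx2 by HYG and srx1 by NAT. The labels give no chromosome XI copy number for D8A or D8B. Whether the 2 libraries of a strain are separate cultures is not said, and each p-value therefore reflects the spread between those libraries alone, possibly a technical one. Besides the deletions, the labels of wild type and null strains list different auxotrophic markers. The insertion on chromosome XI and the monosomic label are given for wild type alone. In a comparison of null with wild-type libraries these differences cannot be told apart. Whether the strains also differ elsewhere in the genome was not tested. Of the 9 genes labelled as deleted, 8 were at most 3.04% of their wild-type mean in the null libraries, GPX1 of the left arm among them. SRX1 of the left arm went against its label, with 52.8 and 76.8 FPKM in wild type, 319 and 415 in the libraries labelled D8A and 654 and 584 in those labelled D8B. Directions between null and wild-type libraries rest on labels that SRX1 does not match.

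A cell that gains a copy of a chromosome usually makes more RNA from most of its genes, so the level of a whole arm is a common RNA readout of aneuploidy, and a gain of part of a chromosome shows as a step along it. Thiol peroxidases reduce hydrogen peroxide and organic peroxides. Chromosome XI holds several genes of peroxide handling and respiration, among them CCP1, the mitochondrial cytochrome c peroxidase, UTH1, a protein of the SUN family found in mitochondria and the cell wall, HAP4, the activator subunit for respiratory genes, and SDH1, the flavoprotein subunit of succinate dehydrogenase. It also carries PIR1, PIR3 and CWP1 of the cell wall and GAP1, the general amino acid permease.

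The boundary between the arms and the labelled insertion site are shown because they anchor the comparison of the arms, read from the R64 RefSeq genome. CEN11 lies at XI:440129-440246 and is printed on the minus strand, with the conserved elements CDEI and CDEIII in capitals, and its AT-rich element CDEII in lower case is 95.2% A and T (range over the 16 centromeres 86.9% to 97.6%). The insertion window of the wild-type label, at XI:430900-431000, is printed on the plus strand, all in lower case, and lies on the left arm within 10 kb of CEN11.
CEN11: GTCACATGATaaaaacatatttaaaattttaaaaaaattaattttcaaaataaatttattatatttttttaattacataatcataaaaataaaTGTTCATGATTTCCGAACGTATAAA
Insertion window: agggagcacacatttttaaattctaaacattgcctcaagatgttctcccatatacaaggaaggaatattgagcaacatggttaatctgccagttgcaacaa

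Upstream windows of 4 genes with large falls in the null strains are also shown, each from 300 to 61 bases before the start codon on the plus strand of R64, from the same RefSeq genome. Capitals mark matches, on either strand, to GATAAG (the core read by the GATA factors of nitrogen regulation, a family that includes Dal80) and to CTA and TAG with any 4 bases between them (the outer letters of the site of Rlm1, a factor of the cell wall integrity pathway). Another motif, TTACTAA (a site of the oxidative stress factor Yap1), was searched on both strands and has no match in the windows shown. No matches overlap each other in the windows shown. The PIR3 window is XI:144101-144340, SRL3 XI:611225-611464, DAL80 XI:506598-506837 and GAP1 XI:514763-515002.
PIR3: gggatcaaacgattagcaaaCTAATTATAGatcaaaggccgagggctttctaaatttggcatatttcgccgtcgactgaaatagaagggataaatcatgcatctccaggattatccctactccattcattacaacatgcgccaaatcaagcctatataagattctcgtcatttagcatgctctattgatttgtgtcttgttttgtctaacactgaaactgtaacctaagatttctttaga
SRL3: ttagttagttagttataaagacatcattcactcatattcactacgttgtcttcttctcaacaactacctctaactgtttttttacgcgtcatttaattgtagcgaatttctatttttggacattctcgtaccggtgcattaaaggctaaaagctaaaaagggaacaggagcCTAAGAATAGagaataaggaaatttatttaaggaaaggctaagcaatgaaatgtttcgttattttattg
DAL80: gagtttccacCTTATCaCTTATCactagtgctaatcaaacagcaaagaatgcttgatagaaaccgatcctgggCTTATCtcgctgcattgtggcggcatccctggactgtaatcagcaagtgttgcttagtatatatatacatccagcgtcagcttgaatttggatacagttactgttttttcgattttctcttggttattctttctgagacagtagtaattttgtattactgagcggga
GAP1: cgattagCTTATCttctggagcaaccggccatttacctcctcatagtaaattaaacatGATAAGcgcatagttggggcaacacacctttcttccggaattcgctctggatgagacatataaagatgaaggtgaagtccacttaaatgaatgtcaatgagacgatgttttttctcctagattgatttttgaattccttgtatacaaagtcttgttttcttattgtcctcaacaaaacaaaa
In these windows DAL80 held 3 matches of GATAAG and GAP1 held 2, against a match in 11.5% of the windows of 5920 genes, 7.55% of 212 left-arm windows and 17.5% of 103 right-arm windows. PIR3 and SRL3 held 1 match of the Rlm1 letters each, which 4.29% of all windows held, 3.77% of left-arm and 4.85% of right-arm windows. TTACTAA was in 6.06% of all windows, 7.55% of left-arm and 5.83% of right-arm windows. These windows were chosen because they hold matches. Of the other genes that fell, PIR1, KDX1, CWP1, OAC1, ASH1, SDH1, YKL107W, GFA1, MAE1, MET14, PET10 and PTR2 held none of the 3 motifs. SRY1 held 1 match of TTACTAA and 2 of GATAAG. YKL102C held 1 of TTACTAA, DRE2 2 of TTACTAA and YET1 1 of GATAAG. Among genes higher in the null libraries, UTH1, CCP1, TGL4 and YSR3 held none, while MRS4 held 1 match of GATAAG and YKR018C 1 of GATAAG and 1 of TTACTAA. SPO14, whose window overlaps that of DAL80, held 3 of GATAAG. A match describes letters and not a bound site.

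Estimated depth ranged from 4.02 M fragments in D8A replicate 1 to 14.2 M in D8B replicate 1, and the median member was covered by 291 to 1114 fragments. D8A replicate 1, the shallowest library, listed 11 members at 0, against 1 or 2 in the others. The RNA genes are short (median 74 bp) and the preparation selected polyadenylated RNA, so they are counted separately.

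The first comparison asked whether either arm as a whole was higher in the null strains. Neither arm was near the log2 value of 1 that a doubling of every gene's RNA would give. The level of an arm is the median over its genes of log2(FPKM + 1) relative to wild type, minus the same median over the other 15 nuclear chromosomes. The left arm stood at 0.02 and 0.03 in D8A and at -0.03 and -0.01 in D8B, against 0.01 and -0.01 in wild type. In D8A the right arm stood at 0.16 and 0.04, in D8B at 0.03 and 0.15, against -0.01 and 0.01 in wild type. The right arm was thus above both wild-type libraries in all 4 null libraries, by amounts far under a doubling, while the left arm was within 0.03 of 0 in every library. That position was not particular to the right arm. Among the 30 arms of other chromosomes, IIIR, VIIL, XIIIL and XR also stood above both wild-type libraries in all 4, and the rest did not. IIIR, for example, stood at 0.02 and 0.11 in D8A and at 0.04 and 0.11 in D8B. An exact two-sided permutation test of 2 libraries against 2 cannot give a p below 0.333, so none was made.

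**Figure D1:**
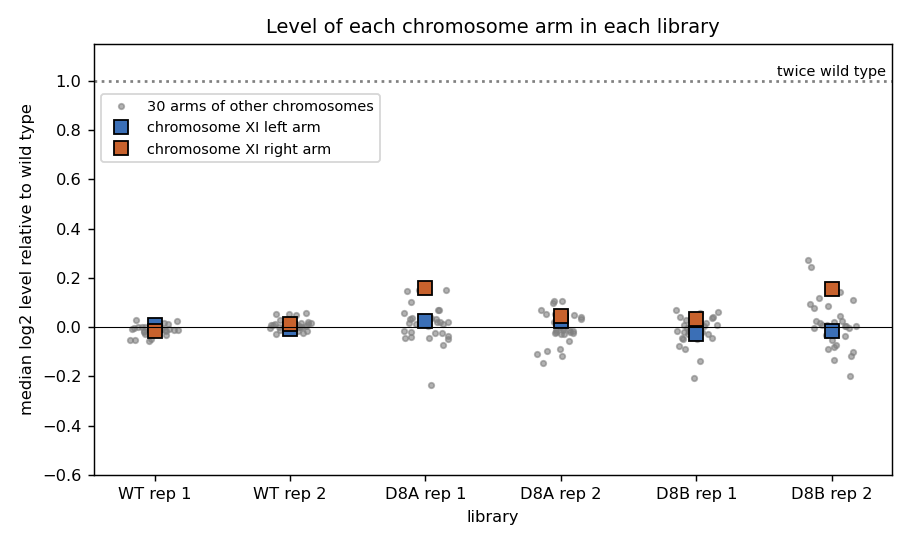
The level of each chromosome arm in each library, as the median log2 level of its genes relative to wild type (vertical axis) by library (horizontal axis). Blue squares are the left arm of chromosome XI, orange squares the right arm, grey points the 30 arms of the other nuclear chromosomes, and the dotted line a doubling; the right arm reaches 0.16 in D8A replicate 1 and 0.15 in D8B replicate 2, and no arm comes near the line.

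The right arm minus the left arm was 0.13 and 0.02 in D8A, 0.06 and 0.17 in D8B, and -0.02 and 0.02 in wild type. The replicates of each null strain lay apart, and the pooled spread between replicates (SD) was 0.0679. In D8A the difference rested on replicate 1, since the value without it was 0.02, against 0.10 with all libraries. It was 0.05 without wild-type replicate 1 and 0.04 after quantile normalization. In D8B it was 0.09 with all libraries and 0.17 without replicate 1. By the fitted log2 change against wild type, the median right-arm gene was at 0.08 in D8A and 0.14 in D8B and the median left-arm gene at -0.02 and 0.05, where all 6925 features tested had medians of -0.01 and 0.06. The left-arm median in D8A changed sign with the scaling and was 0.01 with libraries centred and 0.11 after quantile normalization. Among the 30 arms of other chromosomes the medians ran from -0.17 to 0.08 in D8A and from -0.12 to 0.20 in D8B. The right arm of chromosome XI ranked 1 of 32 in D8A, next to a highest other arm at 0.08, and 6 of 32 in D8B, below both arms of chromosome V (0.20 each) and IL, IIIR and XIIIL (0.17, 0.16 and 0.14).

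Along the chromosome no window came near a doubling. In 14 windows of 50 kb the null libraries ran from -0.29 to 0.57 and the wild-type libraries from -0.14 to 0.14. The highest null value came from the last window, which held 4 genes. The 26 right-arm genes within 50 kb of the centromere had a median log2 change of 0.14 in D8A and 0.17 in D8B, and the 28 left-arm genes within that distance had 0.06 and 0.17.

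The 3 genes nearest to CEN11 on each arm were examined next. On the left these are MRP17, a mitochondrial ribosomal protein, DID4, a subunit of the ESCRT-III sorting complex, and MET14, the adenylylsulfate kinase of sulphate assimilation. On the right they are VPS1, a dynamin-like GTPase, PAP1, the poly(A) polymerase, and OSH6, a lipid transfer protein. MET14 alone of the 6 passed in limma, in D8A, and its values are given with the amino acid genes. PAP1 held 52.0 and 58.8 FPKM in the wild-type libraries, 68.8 and 80.7 in D8A and 72.9 and 70.7 in D8B, and all 4 null libraries were above both wild-type libraries, with log2 changes of 0.42 and 0.37 that did not pass. The kinetochore, spindle and cell cycle genes of the chromosome, such as CSE4, the centromeric histone, also held no gene that passed, with 0 of 13 in either strain (0 at an unadjusted p under 0.05) and medians of 0.15 in both.

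Single genes were tested with limma on log2(FPKM + 1) over all 6925 features, at a Benjamini-Hochberg adjusted p under 0.05. On the left arm 13 of 235 genes were lower in D8A than in wild type and 0 were higher, where 3.83% of all features were lower and 1.23% higher. In D8B 10 left-arm genes were lower and 0 higher, against 3.68% and 1.21% of all features. On the right arm 5 of 108 genes were lower and 3 higher in D8A, and 7 were lower and 4 higher in D8B. Most calls on either arm were therefore falls, as over all features. At an unadjusted p under 0.05, in either direction, there were 50 left-arm and 33 right-arm genes in D8A (21.3% and 30.6%) and 48 and 31 in D8B (20.4% and 28.7%), where 17.96% and 19.02% of all features had such a p.

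These counts depended on scaling, on the wild-type libraries and on whether short features were fitted. With libraries centred on the other chromosomes the left arm had 2 rises and 19 falls in D8A and 1 and 15 in D8B, and the right arm 6 and 7 in D8A and 8 and 9 in D8B. Over all features that scaling gave 1.73% higher and 4.98% lower in D8A and 1.82% and 4.87% in D8B. After quantile normalization they were 3 and 15 in D8A and 2 and 16 in D8B on the left, and 7 and 8 in D8A and 7 and 9 in D8B on the right, where 2.35% and 4.68% of all features were called in D8A and 1.89% and 5.21% in D8B. Without wild-type replicate 1 the left arm had 6 calls in D8A and the right arm 3, and without wild-type replicate 2 they had 5 and 2, where 2.05% and 1.3% of all features were called. In D8B the right arm had 6 calls without wild-type replicate 1 and 5 without replicate 2, 7 without either D8B library, and 16 and 15 without D8A replicate 1 and 2. The shares of all features called in those 6 fits were 2.45%, 1.42%, 2.66%, 1.83%, 6.89% and 6.74%, in the order wild type, D8B and D8A, replicate 1 first. The left arm in D8B had 6 calls without wild-type replicate 2, and in D8A 8 without D8A replicate 1, where 2.86% of all features were called. Fitting only features of 300 bp or more gave 6 rises and 26 falls on the left arm and 9 and 10 on the right in D8A, where 4.05% of all features fitted were higher and 8.92% lower. In D8B it gave 4 and 22 on the left and 12 and 13 on the right, where 4.73% were higher and 8.5% lower. The comparisons of D8A and D8B share the wild-type libraries, so the 8 left-arm and 6 right-arm genes that passed in both are not independent counts.

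**Figure D2:**
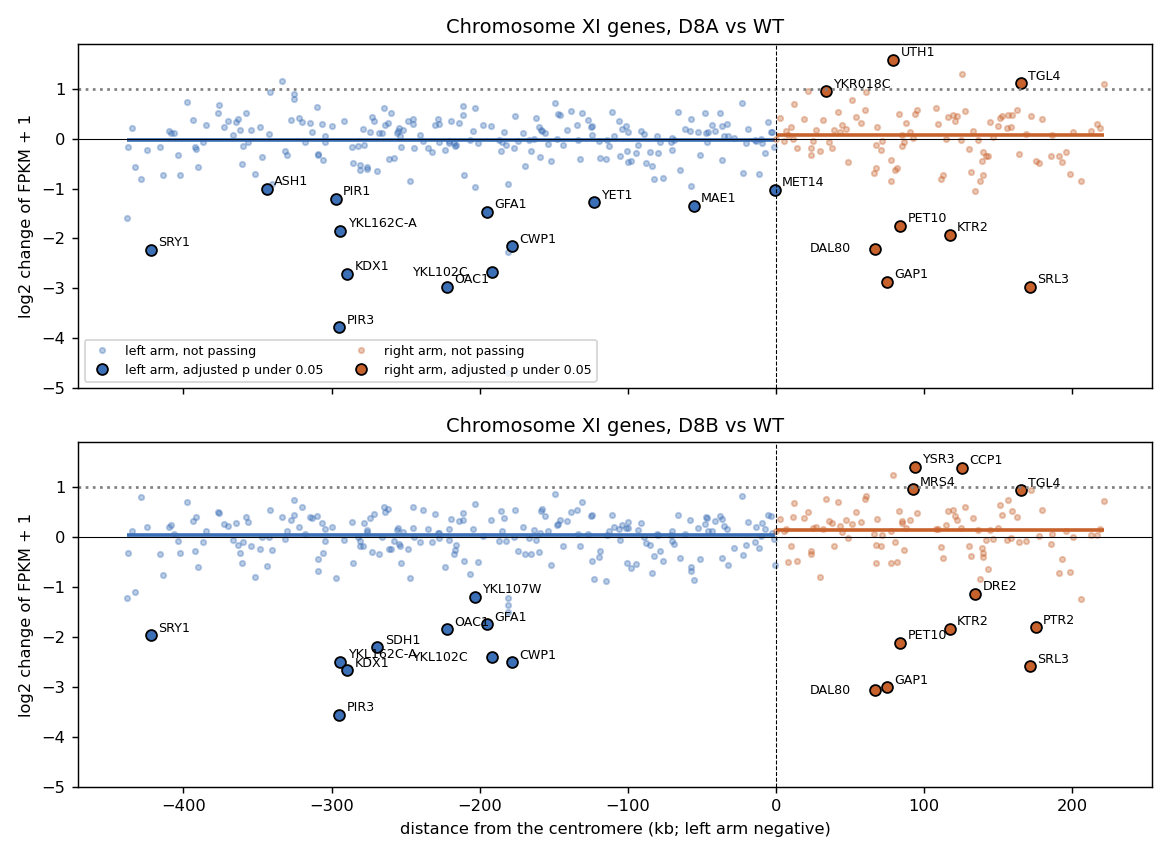
Log2 change of FPKM + 1 against wild type (vertical axis) for each chromosome XI gene by its distance from the centromere in kb (horizontal axis, left arm negative), for D8A above and D8B below. Filled, named points passed in limma at an adjusted p under 0.05, thick lines are the arm medians (-0.02 and 0.08 in D8A, 0.05 and 0.14 in D8B) and the dotted line is a doubling; the rises that passed lie on the right arm and the falls lie on both.

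Counting libraries in place of tests, 34 of 108 right-arm genes (31.5%) were higher in all 4 null libraries than in both wild-type libraries, where 15.2% of all features were. On the left arm 36 of 235 genes were (15.3%). In the other direction 17 right-arm genes (15.7%) and 46 left-arm genes (19.6%) were below both wild-type libraries in all 4, against 16.3% of all features. The 34 right-arm genes included UTH1, CCP1, TGL4, YSR3 and YKR018C and also genes with changes that did not pass, such as RSC4, a subunit of the RSC chromatin remodeller (0.69 in D8A and 0.68 in D8B), and SPO14, a phospholipase D (0.93 and 0.82). In the fit of features of 300 bp or more RSC4 passed in D8A and D8B (limma adjusted p = 0.0324 and 0.0356), as did SPO14 (0.00194 and 0.00804).

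The rises on the right arm that passed were those of UTH1, CCP1, TGL4, YKR018C, YSR3 and MRS4. UTH1 (YKR042W, XI:519527-520624) held 337 and 433 FPKM in the wild-type libraries, 1209 and 1094 in D8A and 692 and 1190 in D8B. Every null library was above both wild-type libraries. The log2 change was 1.59 ± 0.31 (SE) in D8A (limma adjusted p = 0.0319) and 1.25 ± 0.31 in D8B (0.0713), and D8A alone passed. The difference between D8B and D8A was -0.34 (adjusted p = 0.775). CCP1 (YKR066C, XI:566113-567198) held 197 and 173 FPKM in the wild-type libraries, 341 and 606 in D8A and 544 and 438 in D8B. Here too the null libraries lay above both wild-type libraries, with a wide gap between the D8A replicates. Its log2 change was 1.40 ± 0.31 in D8B (limma adjusted p = 0.0474) and 1.30 ± 0.31 in D8A (0.062). Both genes were chosen as known from the study. In the fit of features of 300 bp or more UTH1 passed in D8B too and CCP1 in D8A too (limma adjusted p = 0.000158 and 3.07e-05). UTH1 in D8A did not pass without wild-type replicate 1 or 2 or D8A replicate 1 or 2 (adjusted p = 0.213, 0.148, 0.123 and 0.0605), and CCP1 in D8B did not pass without wild-type replicate 1 or 2 or D8B replicate 1 or 2 (0.18, 0.34, 0.167 and 0.131). With no filter on low values the right arm had 0 rises and 5 falls in D8A, where 0.511% of all features were higher and 2.1% lower. In that fit UTH1, TGL4 and YKR018C did not pass in D8A (limma adjusted p = 0.0853, 0.0566 and 0.0508), nor CCP1 and TGL4 in D8B (0.105 and 0.0791). CCP1 in D8B also did not pass with a pseudocount of 0.1 (0.0576), and UTH1 in D8A and MRS4 in D8B did not after quantile normalization (0.0518 and 0.0568).

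TGL4 (YKR089C), a lipase of stored triacylglycerol, was the member whose rise passed in both strains. It held 29.3 and 36.3 FPKM in the wild-type libraries, 70.5 and 72.6 in D8A and 58.5 and 68.7 in D8B. Wild type and null libraries were clearly apart. The log2 changes were 1.11 ± 0.20 in D8A and 0.94 ± 0.20 in D8B (limma adjusted p = 0.0231 and 0.0419). YKR018C, a gene without a standard name, rose in D8A, from 80.6 and 92.9 FPKM to 167 and 171 (0.96 ± 0.21, limma adjusted p = 0.0426), and held 139 and 159 FPKM in D8B (0.77, adjusted p = 0.0851). Without wild-type replicate 1 or 2 the calls of TGL4 ended (adjusted p = 0.213 and 0.131 in D8A, 0.326 and 0.199 in D8B), as did those without D8A replicate 1 in D8A (0.0658) and without D8B replicate 1 or 2 in D8B (0.105 and 0.257). The call of YKR018C ended without any of the 6 libraries, with adjusted p from 0.0572 to 0.335.

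YSR3 and MRS4, neighbours on the right arm, were higher in D8B. YSR3 (YKR053C), a phosphatase of sphingoid base phosphates, held 29.4 and 34.5 FPKM in the wild-type libraries, 43.3 and 47.6 in D8A and 88.5 and 84.3 in D8B. D8B was above D8A and D8A above wild type in every library. Only the change in D8B passed, at 1.41 ± 0.19 (limma adjusted p = 0.00627), and that in D8A was 0.50 (0.223). MRS4 (YKR052C), a carrier of iron into mitochondria, held 75.4 and 73.2 FPKM in the wild-type libraries, 79.7 and 71.0 in D8A and 154 and 137 in D8B. D8A overlapped wild type and D8B was above both. The change in D8B was 0.96 ± 0.20 (limma adjusted p = 0.036) and in D8A 0.02 (0.969). Between D8B and D8A the differences were 0.91 and 0.94 and did not pass (adjusted p = 0.134 and 0.136). Without wild-type replicate 1 or 2 neither gene passed in D8B (0.0761 and 0.0637 for YSR3, 0.222 and 0.333 for MRS4), nor did MRS4 without D8B replicate 1 or 2 (0.159 and 0.137).

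On the left arm no gene passed as higher. FAS1, the beta subunit of fatty acid synthase, was the left-arm gene with the highest fitted change in D8A. It held 243 and 318 FPKM in the wild-type libraries, 771 and 501 in D8A and 266 and 513 in D8B. D8B replicate 1 lay within the wild-type range, and the changes of 1.16 in D8A and 0.41 in D8B did not pass (limma adjusted p = 0.149 and 0.607). In the fit of features of 300 bp or more, whose calls rest mainly on the fold change, FAS1 passed in D8A (limma adjusted p = 0.000344).

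The deepest falls that passed were those of PIR3, GAP1, DAL80, OAC1 and SRL3. PIR3 (YKL163W, XI:144401-145378), a glycoprotein bound covalently to the cell wall, held 367 and 546 FPKM in the wild-type libraries, 31.0 and 32.2 in D8A and 35.5 and 38.6 in D8B. All null libraries were far below wild type. The log2 change was -3.78 ± 0.24 in D8A and -3.56 ± 0.24 in D8B (limma adjusted p = 0.000234 and 0.000289), or a ratio of 0.0693 and 0.0812 of the wild-type mean. Its neighbour PIR1 (YKL164C), of the same family, held 823 and 995 FPKM in the wild-type libraries, 376 and 407 in D8A and 460 and 579 in D8B. It too was lower in every null library, and it passed in D8A (-1.21 ± 0.25, limma adjusted p = 0.0349) but not in D8B (-0.81, 0.122). PIR1 in D8A did not pass without wild-type replicate 1 or 2 or D8A replicate 1 or 2 (0.138, 0.333, 0.109 and 0.0512).

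These 2 genes lie in a stretch of the left arm with further falls. From PIR1 at position 141794 to KDX1 at 150687 there are 5 features. Of these, 4 passed as lower in D8A, where 3.83% of all features were lower, and all of those but PIR1 passed in D8B. The ends of the stretch are themselves genes that passed in D8A, which raises this count, so it is no test of clustering. KDX1 (YKL161C), a relative of the cell wall integrity kinase Slt2, held 206 and 218 FPKM in the wild-type libraries, 29.0 and 34.7 in D8A and 37.0 and 28.6 in D8B. The null libraries did not approach wild type, and the changes were -2.70 and -2.67 (limma adjusted p = 0.000573 and 0.00066). YKL162C-A, a 153 bp feature, fell by 1.85 in D8A and by 2.50 in D8B (limma adjusted p = 0.00587 and 0.00195), and its call in D8A ended without wild-type replicate 2 (0.0828). YKL162C, which lies between it and KDX1, was at 15.98 and 22.5 FPKM in wild type and at 17.2 to 28.1 FPKM in the null libraries, with changes of 0.37 and -0.05 that did not pass.

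**Figure D3:**
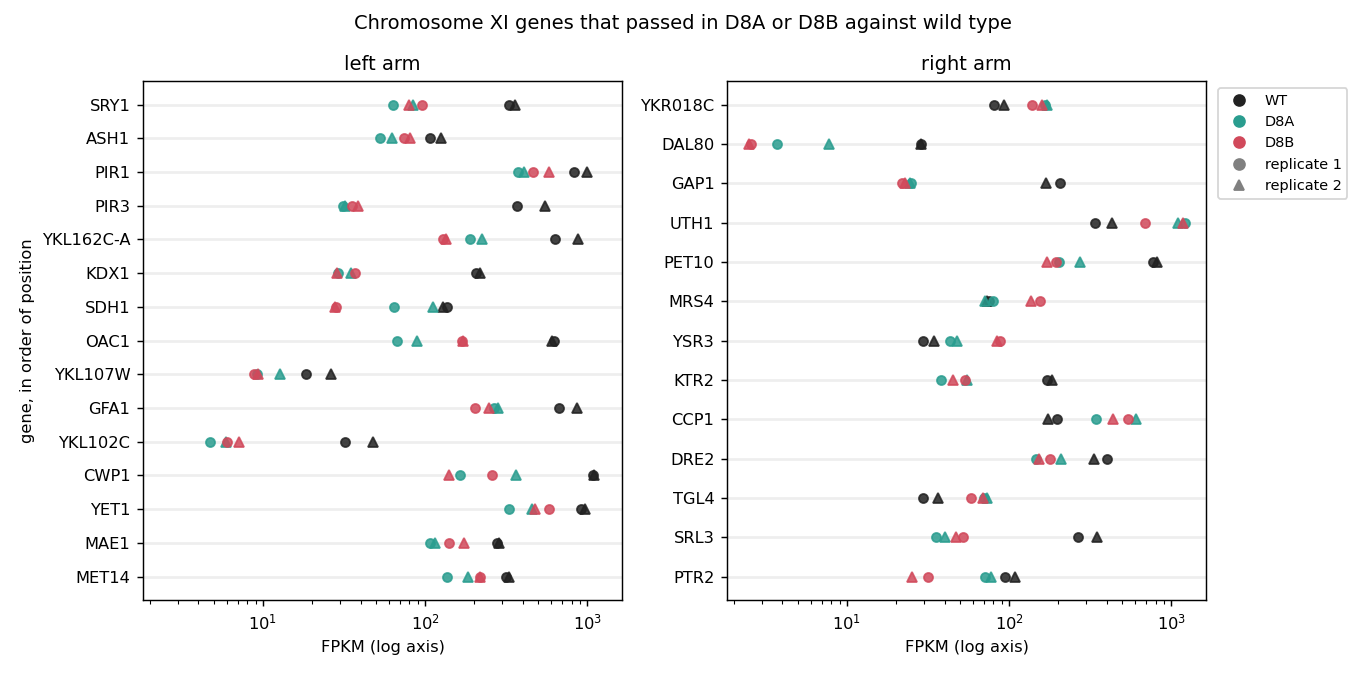
FPKM in each library (horizontal log axis) of the 28 chromosome XI genes that passed in D8A or D8B against wild type, in order of position down the page, left arm in the left panel and right arm in the right panel. Circles are replicate 1 and triangles replicate 2; for PIR3 wild type is at 367 and 546 FPKM and the null libraries are at 31.0 to 38.6, and for MRS4 D8A lies on wild type while D8B is higher.

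A list for the cell wall and mannosylation held 11 chromosome XI genes, 9 on the left arm and 2 on the right. Of these, 5 passed as lower in D8A and 4 in D8B, and 0 as higher. Over all features 3.83% were lower and 1.23% higher in D8A, and 3.68% and 1.21% in D8B. The list's median change was -0.91 in D8A and -1.21 in D8B, where all features had -0.01 and 0.06. The median stayed between -0.76 and -0.91 in D8A and between -1.09 and -1.21 in D8B under the other scalings. CWP1, a mannoprotein of the wall, held 1090 and 1098 FPKM in the wild-type libraries, 163 and 365 in D8A and 260 and 141 in D8B. All null libraries were below wild type but differed among themselves, and the changes were -2.16 ± 0.43 and -2.51 ± 0.43 (limma adjusted p = 0.0318 and 0.0177). GFA1, which starts the synthesis of the sugar precursor of chitin, held 668 and 859 FPKM in the wild-type libraries, 265 and 282 in D8A and 204 and 247 in D8B, and fell by 1.47 and 1.75 (limma adjusted p = 0.0148 and 0.00703). KTR2 of the right arm, a mannosyltransferase, held 170 and 183 FPKM in wild type and 38.2 to 54.9 in the null libraries, and fell by 1.92 and 1.83 (limma adjusted p = 0.00443 and 0.00518). MCD4 and MNN4, which act on GPI anchors and on mannose phosphate, had changes of 0.21 to 0.28 and did not pass. CWP1 did not pass without wild-type replicate 1 or 2 in either strain (adjusted p = 0.126 and 0.175 in D8A, 0.0761 and 0.109 in D8B), without D8A replicate 1 in D8A (0.114) or without D8B replicate 2 in D8B (0.0945). Without wild-type replicate 2, GFA1 did not pass in D8A (0.19) or D8B (0.0993) nor KTR2 (0.0525 and 0.0637), and GFA1 in D8A also did not pass without wild-type replicate 1 (0.0636) or D8A replicate 1 (0.0571).

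GAP1 (YKR039W, XI:515063-516871), the permease induced on poor nitrogen sources, held 207 and 168 FPKM in the wild-type libraries, 24.8 and 24.4 in D8A and 21.8 and 23.0 in D8B. The 4 null libraries were nearly equal and far below wild type, with changes of -2.87 ± 0.19 and -3.01 ± 0.19 (limma adjusted p = 0.000254 and 0.000244). DAL80 (YKR034W, XI:506898-507707), a GATA factor that represses nitrogen catabolic genes, held 28.5 and 28.7 FPKM in the wild-type libraries, 3.69 and 7.78 in D8A and 2.56 and 2.48 in D8B. It too was lower in every null library, with changes of -2.21 and -3.07 (limma adjusted p = 0.00857 and 0.00239). DAL80 shares 407 bp with YKR033C, so their reads cannot be told apart, and its call in D8A ended without wild-type replicate 1 or 2 (0.0516 and 0.068). UTH1, with its rise, lies in the same stretch as GAP1, with a tRNA gene and 2 little expressed features between them.

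In the list of amino acid and nucleotide genes 3 of 13 passed as lower in each strain and 0 as higher, where 3.83% and 3.68% of all features were lower. The list's medians were -0.44 and -0.38, against -0.01 and 0.06 over all features. SRY1 (YKL218C), which breaks down 3-hydroxyaspartate, held 328 and 360 FPKM in the wild-type libraries, 63.3 and 84.0 in D8A and 95.9 and 79.1 in D8B. Null and wild-type libraries did not overlap, and the falls were by 2.22 and 1.97 (limma adjusted p = 0.00226 and 0.00388). MET14 held 316 and 327 FPKM in the wild-type libraries, 137 and 183 in D8A and 218 and 218 in D8B. It was below wild type in every null library and passed in D8A (-1.02, limma adjusted p = 0.0486) and not in D8B (-0.56, 0.239). MET14 in D8A did not pass without wild-type replicate 1 or 2 (0.251 and 0.356), D8A replicate 1 (0.12) or either D8B library (0.0841 and 0.086).

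Among genes of mitochondria, D8A and D8B were described side by side because they share a genotype label. OAC1 (YKL120W), a carrier of oxaloacetate and sulphate into mitochondria, held 626 and 603 FPKM in the wild-type libraries, 67.4 and 88.7 in D8A and 169 and 171 in D8B. Both strains were far below wild type and D8A was the lower of them. The changes were -2.97 ± 0.23 and -1.85 ± 0.23 (limma adjusted p = 0.000464 and 0.00412), and in D8B the call ended without wild-type replicate 2 (0.0508). SDH1 (YKL148C) held 136 and 129 FPKM in the wild-type libraries, 64.04 and 112 in D8A and 28.1 and 28.0 in D8B. D8B was below every other library, and D8A lay between with its replicates apart. The change in D8B was -2.20 ± 0.27 (limma adjusted p = 0.00437) and in D8A -0.65 (0.27). HAP4 held 50.3 and 68.3 FPKM in the wild-type libraries, 54.4 and 61.4 in D8A and 31.9 and 37.6 in D8B. D8A lay within wild type and D8B below, with changes of -0.02 and -0.74 that did not pass (limma adjusted p = 0.967 and 0.114). In the fit of features of 300 bp or more HAP4 passed in D8B (limma adjusted p = 0.0172). The change in D8A had the other sign with libraries centred (0.01) and after quantile normalization (0.03). MAE1, the mitochondrial malic enzyme, fell by 1.34 in D8A (limma adjusted p = 0.0132) and was at -0.85 in D8B (0.0713). It shares 388 bp with YKL030W, and its call ended without wild-type replicate 1 or 2 (0.107 and 0.155).

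In the list of 12 respiration genes 1 passed as higher in D8B (CCP1) and 1 as lower (SDH1), and 0 passed in D8A (2 at an unadjusted p under 0.05). The median was 0.06 in D8A and -0.28 in D8B, and 1 of 12 genes was above 0 in D8B. Of all features 1.23% passed as higher and 3.83% as lower in D8A, and 1.21% and 3.68% in D8B. Their medians were -0.01 in D8A and 0.06 in D8B, and 49.3% and 55.8% of them were above 0. An unadjusted p under 0.05 was held by 17.96% and 19.02% of all features. Of the 8 genes for mitochondrial translation, 6 were above 0 in D8A and 1 in D8B, with medians of 0.18 and -0.18, and 0 passed in either strain (0 and 1 at an unadjusted p under 0.05). The respiration gene above 0 in D8B was CCP1, on the right arm, and the other 11 are on the left arm.

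Several lists held no member that passed. The 13 ribosome biogenesis genes, 9 on the left arm and 4 on the right, had medians of 0.28 in D8A and 0.46 in D8B, with 12 and 13 of them above 0, where 49.3% and 55.8% of all features were above 0. None passed (1 and 5 at an unadjusted p under 0.05), while with libraries centred 1 passed as higher in D8B and after quantile normalization 2 did. DHR2, a helicase of this group, held 32.0 and 30.2 FPKM in the wild-type libraries, 43.4 and 61.3 in D8A and 50.3 and 66.1 in D8B. All null libraries were above wild type. In the fit of features of 300 bp or more DHR2 passed in D8A and D8B (limma adjusted p = 0.0254 and 0.00358). The 5 cytosolic ribosomal protein genes had medians of -0.49 in D8A and 0.03 in D8B, and the value in D8A became -0.02 after quantile normalization. The 16 genes for membrane traffic, 7 for translation factors and 7 for ubiquitin and the proteasome held no gene that passed either. Their medians were -0.11, 0.11 and 0.12 in D8A and 0.15, 0.26 and 0.06 in D8B, and that of membrane traffic in D8A was 0.03 after quantile normalization. At an unadjusted p under 0.05 they held 1, 2 and 4 in D8A and 0, 1 and 4 in D8B, where 17.96% and 19.02% of all features did. With libraries centred and after quantile normalization 1 membrane traffic gene passed as higher in D8A and 1 translation factor gene in D8B, and after quantile normalization 1 ubiquitin or proteasome gene did in each strain.

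**Figure D4:**
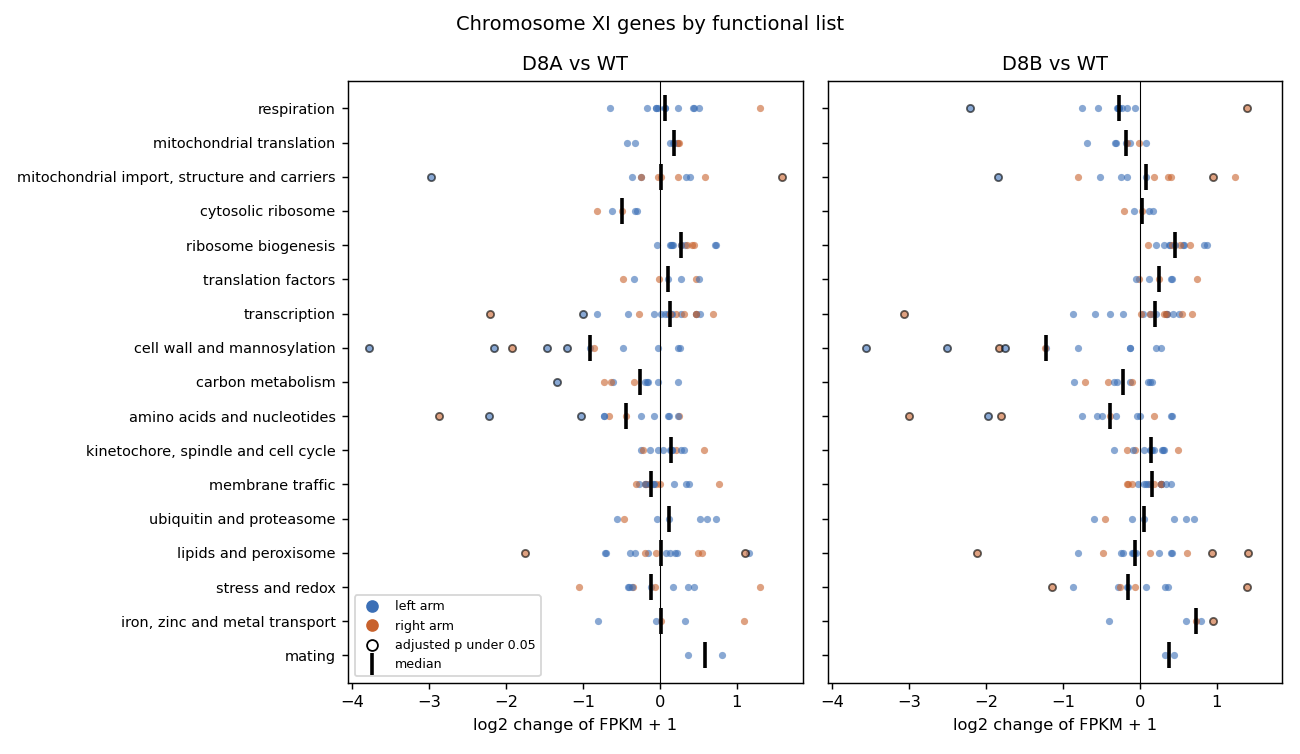
Log2 change of FPKM + 1 against wild type (horizontal axis) of the chromosome XI genes of 17 functional lists (rows), for D8A on the left and D8B on the right. Blue points are left-arm and orange points right-arm genes, outlined points passed in limma at an adjusted p under 0.05 and black bars are list medians; the cell wall list has the lowest medians (-0.91 and -1.21), and its 5 and 4 genes that passed are falls.

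Further falls on the right arm were those of SRL3, PET10, DRE2 and PTR2. SRL3 (YKR091W), a relative of the cell cycle repressor Whi5, held 264 and 347 FPKM in the wild-type libraries, 35.6 and 40.4 in D8A and 52.1 and 47.3 in D8B. Null libraries were far below wild type, and the falls were by 2.96 and 2.59 (limma adjusted p = 0.000408 and 0.000848). PET10, a protein of lipid droplets, held 768 and 822 FPKM in wild type and 172 to 273 in the null libraries, and had changes of -1.75 and -2.12 (limma adjusted p = 0.00659 and 0.00328). In D8A its call ended without wild-type replicate 1 or 2 (0.0547 and 0.0901). DRE2, which helps assemble cytosolic iron-sulphur clusters, held 399 and 336 FPKM in wild type and 147 to 209 in the null libraries. Its change was -1.14 in D8B, which passed (limma adjusted p = 0.0484), and -1.06 in D8A, which did not (0.0633), and the call ended without either wild-type or either D8B library (0.298, 0.23, 0.121 and 0.261). PTR2 (YKR093W), the transporter of small peptides, held 94.3 and 108 FPKM in the wild-type libraries, 71.0 and 77.6 in D8A and 31.5 and 25.3 in D8B. D8B was below D8A and D8A below wild type, and the change in D8B was -1.80 ± 0.21 (limma adjusted p = 0.00328), while that in D8A was -0.44 and did not pass (0.314). SRP40, a nucleolar protein encoded between SRL3 and PTR2, was at 132 and 133 FPKM in wild type and 145 to 265 in the null libraries, and did not pass. In the fit of features of 300 bp or more SRP40 passed in D8B (limma adjusted p = 0.00309).

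The remaining left-arm genes that passed were ASH1, the daughter-cell repressor of mating-type switching, YET1, a membrane protein of the endoplasmic reticulum, and the features YKL102C and YKL107W. YKL102C held 32.2 and 47.9 FPKM in wild type and 4.72 to 7.14 in the null libraries, and fell by 2.68 and 2.41 (limma adjusted p = 0.00176 and 0.00248). ASH1 and YET1 fell in D8A by 1.00 and 1.28 (limma adjusted p = 0.0371 and 0.0349), and YKL107W in D8B by 1.20 (0.0401). ASH1 in D8A passed without D8A replicate 2 and did not pass without any other single library (adjusted p from 0.0633 to 0.353). YET1 did not pass without wild-type replicate 1 or 2 or D8A replicate 1 (0.182, 0.279 and 0.112), nor YKL107W without either wild-type or either D8B library (0.0712, 0.34, 0.135 and 0.143). With no filter on low values the falls of ASH1, PIR1, CWP1, YET1 and MET14 in D8A and of YKL107W, CWP1 and DRE2 in D8B did not pass (adjusted p from 0.0506 to 0.110). MET14 in D8A and DRE2 in D8B also did not pass with a pseudocount of 0.1 (0.0523 and 0.0554), nor PIR1 in D8A after quantile normalization (0.095).

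D8B was compared with D8A directly, as the test of whether the strains' changes differ. On both arms 0 genes passed in limma, where 0.332% of all features did. An unadjusted limma p under 0.05 was held by 15 left-arm genes (6.38%) and 7 right-arm genes (6.48%). Both shares were below that of all features (636, or 9.18%). The smallest adjusted p among the named genes were those of PTR2 (-1.36, adjusted p = 0.0538), FRE2, a ferric reductase of the left arm (1.60, 0.0762), and SDH1 (-1.56, 0.077). FRE2 held 7.33 and 6.68 FPKM in D8A, 18.1 and 29.97 in D8B and 11.6 and 14.4 in wild type. D8B was above and D8A below wild type. A fit to features of 300 bp or more called SDH1 and PTR2 as lower and OAC1, FRE2, YSR3 and MRS4 as higher in D8B, where 3.19% of all features fitted were called. That fit borrowed far more of the variance from other genes (247 prior degrees of freedom against 4.7), so its calls rest mainly on the fold change. Without D8A replicate 2, 3 left-arm genes passed, and without D8A replicate 1, 1 did, where 104 and 42 of all features passed.

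At the insertion site of the wild-type label the flanking genes did not pass. SFT1 (YKL006C-A), a SNARE of the Golgi, held 290 and 280 FPKM in the wild-type libraries, 221 and 324 in D8A and 379 and 315 in D8B. RPL14A (YKL006W) held 9344 and 7250 FPKM in the wild-type libraries, 5534 and 8165 in D8A and 11735 and 7332 in D8B, and its near-identical copy RPL14B makes its value uncertain. For both genes the null libraries surrounded wild type. The nearest feature, snR87 at position 431030 to 431138, was named for its position after its values were seen. It held 4882 and 4823 FPKM in the wild-type libraries, 1306 and 2656 in D8A and 2281 and 2082 in D8B, and did not pass (limma adjusted p = 0.0769 and 0.124). Its 4 null libraries were below wild type, and at 109 bp it is among the short members, whose FPKM lay at a median of 12.6 to 31.4 times the midpoint of their deposited interval.

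Of the 21 RNA genes 0 passed in either strain, and 4 in each (19.1%) had an unadjusted p under 0.05, against 17.96% and 19.02% of all features. The outermost genes of at least 300 bp that were tested did not pass either. PAU16 at the left end held 4.35 and 3.64 FPKM in wild type and 0 to 1.77 in the null libraries, and GEX2, a glutathione exchanger at the right end, held 3.12 and 4.63 in wild type and 5.86 to 12.04 in the null libraries. In the fit of features of 300 bp or more PAU16 and GEX2 passed in D8A (limma adjusted p = 0.0178 and 0.00862). Both have near-identical copies elsewhere, which makes their values uncertain.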

How the data were processed

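FPKM with confidence bounds, 1 table per library, was deposited by the authors, per the file headers. The submitters' processing notes name Bowtie2 2.1.0, TopHat2 2.0.9, Cufflinks 2.1.1 and the build R64. Strand use in counting was not given in the sources used here. Reads of overlapping features therefore cannot be told apart. The tables have 7126 features each. The 1 chromosome XI feature without the status OK was left out. All 315 members found in R64 had the same coordinates there.

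Values were tested as log2(FPKM + 1), which understates the changes of weak genes. No count model was used. One linear model with a mean per strain was fitted to the 6925 features whose mean FPKM was 1 or more, using limma 3.58.1 in R 4.3.3 (3 residual and 4.7 prior degrees of freedom), and checked on simulated data. Adjusted p-values are two-sided Benjamini-Hochberg values over all 6925, with a threshold of 0.05, and errors are limma standard errors (n = 2 libraries per strain). Library depth comes from the steps of the deposited interval bounds, since 83.7% to 87.8% of the low bounds were whole multiples of 1 amount (tolerance 0.02). FPKM of members under 300 bp lay at a median of 12.6 to 31.4 times the interval midpoint (1.10 to 1.13 for longer members).

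Members, lists, tests and most alternatives were chosen with earlier results of these data known. The rule named UTH1, CCP1, HAP4 and PIR3, the largest rises (up to 5) and falls (up to 4) that passed per arm and strain among members of at least 300 bp with an FPKM mean of 10 or more, the largest that passed between D8B and D8A, up to 3 per list of 17 lists, the genes at the centromere, at the insertion site and at the ends. It named 35 genes, and 13 further genes were named after their values were seen. An upstream window of 1 gene is not reported here.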

Additional observations from a re-analysis of the deposited data

How the results depend on the processing

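No call of a named gene changed direction under the 13 alternatives to the fit. Counting changes that did not pass, 31 of 144 results of named genes had the opposite sign under at least 1 alternative. Of 42 calls of named genes, 17 held under all 13, and that of YKL162C-A in D8B held under the 12 that could be fitted for it. Among the 17 were those of PIR3, KDX1, GAP1, SRL3, SRY1 and YKL102C in both strains, OAC1 in D8A and SDH1 and PTR2 in D8B. Without wild-type replicate 1, 19 were lost, and without wild-type replicate 2, 24. With 2 libraries per strain, and 4.02 M fragments in the shallowest, smaller changes could not be resolved.

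Calls over all features, on the left arm and on the right arm were 350, 13 and 8 in D8A, 339, 10 and 11 in D8B, and 23, 0 and 0 between the null strains. With no filter they were 184, 8 and 5 in D8A, and 175 and 11 over all features in D8B and between the null strains. With libraries centred, the arms had 21 and 13 in D8A and 16 and 17 in D8B. After quantile normalization the right arm had 15 in D8A and the left arm 18 in D8B. For features of 300 bp or more they were 801, 32 and 19 in D8A, 817, 26 and 25 in D8B, and 197, 3 and 3 between the null strains, in a fit with 247 prior degrees of freedom. Interval midpoints in place of FPKM, an alternative chosen after seeing the data, gave 13 on the right arm in D8A, 594, 19 and 18 in D8B, and 82, 4 and 2 between the null strains. The right minus left median became 0.17 in D8A and 0.16 in D8B over members that overlap no other feature. The causes were not tested.

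Leaving out 1 library at a time gave 90 to 473, 5 to 19 and 2 to 7 calls in D8A, 98 to 477, 6 to 13 and 5 to 16 in D8B, and 10 to 104, 0 to 3 and 0 to 0 between the null strains. The right minus left median ran from 0.0166 to 0.134 in D8A, from 0.0628 to 0.169 in D8B and from -0.05 to 0.02 between the null strains.

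Correlations across genes between the deviations of same-numbered libraries were -0.148 for wild type and D8A and 0.332 for wild type and D8B. For D8A and D8B the value was -0.254. With 2 libraries per strain these values cannot decide whether the numbers pair the samples, and the linear model did not use the numbers. With the replicate block 13 of the 42 calls of named genes were lost, UTH1 in D8A and CCP1 in D8B among them. Its calls were 187 over all features and 7 on the left arm in D8A, 213 and 7 on the right arm in D8B, and 9 over all features between the null strains.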
